A study of Mus musculus with 6 samples.

Results

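Liver expression of 9 genes that set hepatic glucose output, glucose use and glycogen storage was examined in mice given FGF19. They were chosen by name from the 23284 genes of the count files: Pck1, G6pc, Fbp1 and Pcx (gluconeogenic enzymes), Ppargc1a (their coactivator), Pklr and Pfkfb1 (glycolysis), Slc2a2 (glucose transport) and Gys2 (glycogen synthase). All 9 were found and all 9 passed the filter on low counts. FGF19 is the human form of the gut hormone that mice make as FGF15. The Vehicle group was 3 C57BL/6 mice of 8 weeks, fasted overnight, given vehicle and killed 6 h later without food. The FGF19 group was 3 such mice given FGF19 at 1 mg/kg in place of vehicle. Both groups were therefore fasted, no fed group and no group given another protein was analysed here, and the composition of the vehicle is not given in the sources used here.

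Total RNA of whole liver was sequenced as paired reads of 100 bases, and the total count per library was between 18994654 and 22920056. The 9 genes together took between 0.666% and 0.915% of these counts. Their counts per library ran from 244 for Ppargc1a to 134290 for Pck1, and 0 of their exon bases are shared with another gene of the files. In the count table FGF19 replicate 3 lay farther from the other FGF19 livers (chi-square per degree of freedom 31.5 and 41.8) than these lay from each other (8.68), against 16.6 to 29.8 among Vehicle livers. Results that rest on this library are given with and without it. Because whole liver was used, fewer cells of a type and less RNA per cell cannot be told apart. The hepatocyte markers were high, with a summed level of 106600 to 111300 CPM in Vehicle livers and 99360 to 109400 CPM in FGF19 livers. CPM are counts per 1000000 reads of the library size scaled by the TMM method. At an adjusted p under 0.05, 0 of 9 were called by edgeR or by DESeq2, where edgeR called 7.41% of all genes tested. At an unadjusted edgeR p under 0.05 there were 3 of 9, against 22.9% of all genes, and 7 of 9 had a log2 fold change below 0.

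In the fasted liver, glucose is made from lactate, pyruvate, glycerol and amino acids. Pyruvate carboxylase (Pcx) and the cytosolic phosphoenolpyruvate carboxykinase (Pck1) carry carbon from pyruvate to phosphoenolpyruvate, fructose-1,6-bisphosphatase (Fbp1) and the glucose-6-phosphatase catalytic subunit (G6pc) complete the path, and glucose leaves the cell through the transporter GLUT2 (Slc2a2). Glucagon, acting through cAMP and CREB, induces Pck1, G6pc and the coactivator PGC-1α (Ppargc1a), and insulin opposes this. In the fed liver glucose is instead stored by glycogen synthase (Gys2) and broken down through liver pyruvate kinase (Pklr), and the bifunctional enzyme of Pfkfb1 makes or removes fructose-2,6-bisphosphate, the switch between the opposed paths. FGF15/19, released from the gut after a meal, is known to act on liver glucose handling without insulin, so the comparison asks whether the mRNAs of these steps differed in fasted liver after 6 h of FGF19.

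The promoters of 4 of the genes are shown because they are classical examples of hormone and glucose control of transcription. Each is the 250 bases before a start site in the RefSeq table (GRCm38.p6), written 5′ to 3′ along the gene, and each matched the mm9 genome exactly at the position given. Windows of the 9 genes were taken only on the chromosome where each gene lies. There were 13 in all, for 8 of the 9 genes, and none for Gys2. Capitals mark matches to the cAMP response element core TGACG (Pck1, Ppargc1a), to TATAAA (G6pc, Pklr) or to the carbohydrate response element pattern, CACG and CGTG with 9 bases between them (Pklr).
Pck1: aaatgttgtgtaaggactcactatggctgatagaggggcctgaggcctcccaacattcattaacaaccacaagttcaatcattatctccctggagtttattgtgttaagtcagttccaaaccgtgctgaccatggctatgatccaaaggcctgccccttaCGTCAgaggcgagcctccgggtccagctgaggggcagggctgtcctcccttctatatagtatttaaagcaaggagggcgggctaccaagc
Ppargc1a: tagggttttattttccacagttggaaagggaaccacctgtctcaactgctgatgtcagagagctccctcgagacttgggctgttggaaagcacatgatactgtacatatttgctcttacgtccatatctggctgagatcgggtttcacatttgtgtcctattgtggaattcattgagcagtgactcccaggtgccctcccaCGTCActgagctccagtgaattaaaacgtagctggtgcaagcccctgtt
G6pc: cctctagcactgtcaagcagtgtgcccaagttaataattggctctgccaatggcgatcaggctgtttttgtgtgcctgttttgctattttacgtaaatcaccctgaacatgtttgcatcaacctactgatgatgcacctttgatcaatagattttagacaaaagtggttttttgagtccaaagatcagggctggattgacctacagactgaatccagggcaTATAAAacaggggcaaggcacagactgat
Pklr: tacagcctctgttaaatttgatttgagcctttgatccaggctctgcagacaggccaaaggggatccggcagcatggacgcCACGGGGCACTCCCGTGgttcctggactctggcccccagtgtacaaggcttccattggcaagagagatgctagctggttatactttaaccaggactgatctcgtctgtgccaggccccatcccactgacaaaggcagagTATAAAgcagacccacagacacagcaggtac

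The window of Pck1 lies at chr2:172978324-172978573 on the plus strand and ends at the first base before the gene of the count files. Its core, read on the minus strand, spans bases 90 to 86 before the start. The window of Ppargc1a is at chr5:51958965-51959214 on the minus strand, with a core on the opposite strand at bases 49 to 45 before the start, and it lies 13804 bases before the gene model that was counted. The window of G6pc is at chr11:101228780-101229029 and that of Pklr at chr3:88940295-88940544, both on the plus strand. The Pklr window is the second of 2 in the table, within the counted gene and outside its exons. Its carbohydrate response element pattern spans bases 170 to 154 before that start. This pattern was added after the window had been read. On both strands and in 32851 windows of the same length, the core TGACG was found in 17.8%, TATAAA in 12.4% and the carbohydrate pattern in 0.219%. Of the 13 windows of the 9 genes, 2 held the core, 3 held TATAAA and 1 held the carbohydrate pattern. The TATAAA not shown was in a window of Pfkfb1, at bases 193 to 188 before its start. The full element TGACGTCA was in 1.55% of windows, the forkhead core TGTTTAC in 3.17%, TTCNNNGAA in 7.02% and the glucocorticoid receptor motif AGAACA in 16.1%, and these letters were in 0 of the 13 windows. CACGTG, in 6.02% of windows, was found once, in a window of Pcx. These matches describe letters and were not tested for binding.

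None of the 9 genes passed the test of FGF19 against Vehicle livers. The p-values came from the quasi-likelihood test of edgeR and were corrected by the Benjamini-Hochberg method across the 12559 genes tested. At an adjusted p under 0.05, 7.41% of all genes tested were called. Of the 9 genes, 0 were lower, against 2.84% of all genes, and 0 were higher, against 4.56%. At the study's threshold of p under 0.01 the counts were also 0 and 0, against 4.98% lower and 6.2% higher of all genes. At an unadjusted p under 0.05, 3 of the 9 were lower (Fbp1, Slc2a2 and Pklr), against 11.3% of all genes, and 0 were higher, against 11.6%. DESeq2, the likelihood ratio test, the exact test and limma-voom also called 0 of 9 at an adjusted p under 0.05. In 14 alternative fits Fbp1, Pklr and Slc2a2 had log2 fold changes below 0 each time, with adjusted p between 0.0502 and 0.400 for Fbp1, 0.102 and 0.421 for Pklr and 0.0850 and 0.411 for Slc2a2 (edgeR, DESeq2 and limma). The log2 fold changes ran from -0.42 for Slc2a2 to 0.41 for Ppargc1a. The median was -0.00076 over all genes tested and -0.12 over the hepatocyte markers, of which 7 of 9 were below 0. Among the 9 genes it was also -0.12, with 6 of 9 below 0. Pklr was the only one of the 9 whose groups did not overlap, where 13.8% of all genes tested had every FGF19 liver below every Vehicle liver and 14.5% had every one above.

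**Figure D1:**
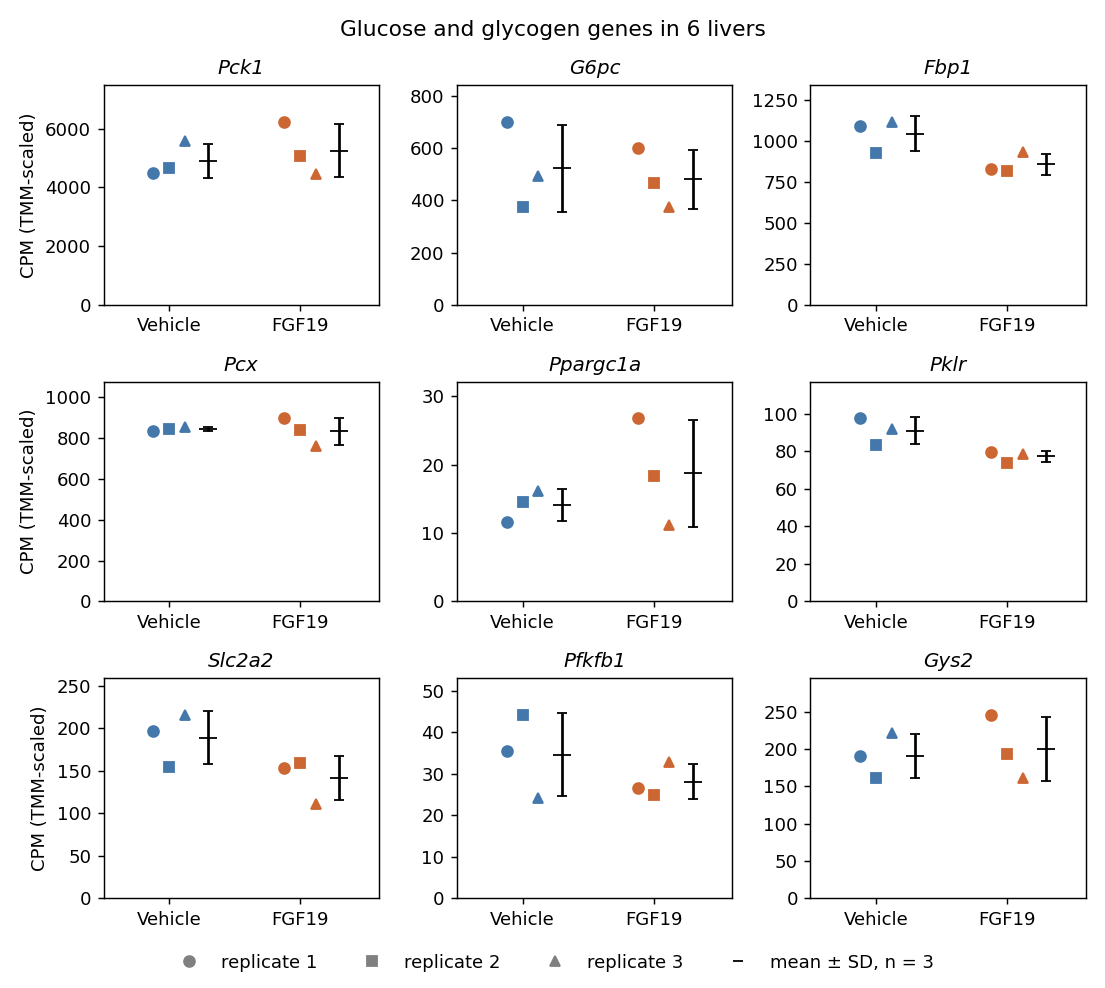
Level of each gene (y axis, CPM scaled by TMM, from 0) in the 3 Vehicle and 3 FGF19 livers; each symbol is 1 liver and the black bar is the mean ± SD (n = 3). The groups overlap in every panel except that of Pklr, and FGF19 replicate 1 is the highest and replicate 3 the lowest FGF19 liver for Pck1, G6pc, Pcx, Ppargc1a and Gys2.

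Pck1 makes phosphoenolpyruvate from oxaloacetate and was the most abundant of the 9. It lies on chromosome 2 of mm9 from 172978574 to 172984754 and has 10 exons in the files. Its level was 4485, 4660 and 5579 CPM in Vehicle replicates 1, 2 and 3 and 6247, 5082 and 4447 CPM in FGF19 replicates 1, 2 and 3. All Vehicle livers were inside the range of the FGF19 livers. The means were 4908 ± 588 CPM and 5259 ± 913 CPM (SD, n = 3), a log2 fold change of 0.10 (SE 0.143, edgeR adjusted p = 0.737). The 95% interval of the difference, before adjustment for the number of genes, ran from -14.3% to 33.9%. Without FGF19 replicate 3 the log2 fold change was 0.21 (edgeR adjusted p = 0.296), and without FGF19 replicate 1 it was -0.043 (adjusted p = 0.925).

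G6pc, on chromosome 11 from 101229044 to 101239217 (5 exons), encodes the enzyme that frees glucose from glucose-6-phosphate. Vehicle livers were at 702, 374 and 492 CPM and FGF19 livers at 601, 468 and 376 CPM. The highest and the lowest of all values were both from Vehicle livers. The mean was 523 ± 166 CPM against 482 ± 113 CPM (SD, n = 3), with a log2 fold change of -0.12 (SE 0.227, edgeR adjusted p = 0.810). Its interval was wide, from -35.2% to 31.2%, and without Vehicle replicate 1, the highest liver, the log2 fold change was 0.15.

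Fbp1, the bisphosphatase that opposes phosphofructokinase, lies on the minus strand of chromosome 13 from 62966113 to 62989596 (7 exons). It was at 1095, 928 and 1121 CPM in Vehicle livers and at 829, 819 and 935 CPM in FGF19 livers. FGF19 replicate 3 was just above Vehicle replicate 2, and the other FGF19 livers were below every Vehicle liver. The means of 1048 ± 105 CPM and 861 ± 64.4 CPM (SD, n = 3) gave a log2 fold change of -0.28 (SE 0.105, edgeR adjusted p = 0.143), which did not pass. Without FGF19 replicate 3 the value was -0.34 with an edgeR adjusted p = 0.0502.

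Pcx, the mitochondrial enzyme that opens the path from pyruvate, lies on chromosome 19 from 4510472 to 4621752 (22 exons). Its Vehicle livers were close together at 834, 841 and 853 CPM, and its FGF19 livers were at 896, 836 and 762 CPM, on both sides of them. The means were 843 ± 9.40 CPM and 831 ± 67.1 CPM (SD, n = 3), a log2 fold change of -0.019 (SE 0.0910, edgeR adjusted p = 0.926). The interval ran from -14.3% to 13.7%, so for Pcx both a larger fall and a larger rise lie outside it.

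Ppargc1a encodes PGC-1α, the coactivator that fasting and glucagon induce in liver. It lies on the minus strand of chromosome 5 from 51845488 to 51945160 (13 exons). Its level was low, at 11.6, 14.5 and 16.2 CPM in Vehicle livers and at 26.8, 18.3 and 11.1 CPM in FGF19 livers. FGF19 replicates 1 and 2 were above every Vehicle liver and FGF19 replicate 3 was below every one. The log2 fold change was 0.41 (SE 0.270, edgeR adjusted p = 0.417), with a mean of 14.1 ± 2.31 CPM against 18.7 ± 7.84 CPM (SD, n = 3) and an interval from -12.7% to 102%. The value turned on single FGF19 livers. Without replicate 3 it was 0.68 and passed (edgeR adjusted p = 0.0438), and without replicate 1 it was 0.061 (adjusted p = 0.931). The fit without replicate 3 called 926 genes lower and 1015 higher over all genes, against 357 and 573 with every liver. Across 14 alternatives the adjusted p of Ppargc1a was between 0.0438 and 0.931.

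Pklr, the pyruvate kinase of liver and red cells and a target of the glucose sensor ChREBP, lies on chromosome 3 from 88940064 to 88950516 (12 exons). It was at 97.6, 83.6 and 91.7 CPM in Vehicle livers and at 79.5, 73.9 and 78.6 CPM in FGF19 livers. Every FGF19 liver was below every Vehicle liver, by at least the small gap between 79.5 and 83.6 CPM. The means were 91.0 ± 7.05 CPM and 77.4 ± 3.00 CPM (SD, n = 3), with a log2 fold change of -0.23 (SE 0.0888, edgeR adjusted p = 0.151). The summed level of the erythroid markers, which mark blood, was 57.3 to 78.8 CPM in Vehicle livers and 43.6 to 57.6 CPM in FGF19 livers. Of these 6 markers 4 were at 0 in every library and 1 was tested, which edgeR did not call and DESeq2 did. Their part in the Pklr values was not tested.

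Pfkfb1 encodes the liver form of the enzyme that makes and removes fructose-2,6-bisphosphate, which activates phosphofructokinase and inhibits Fbp1. It lies on the X chromosome from 147024464 to 147078403 (14 exons). Vehicle livers ranged widely, at 35.5, 44.2 and 24.2 CPM, and FGF19 livers were at 26.6, 24.9 and 32.8 CPM, all inside that range. The log2 fold change was -0.30 (SE 0.198, edgeR adjusted p = 0.417), with an interval from -40.3% to 10.5%. Without Vehicle replicate 2, its highest liver, the value was -0.087, and without Vehicle replicate 3, its lowest, it was -0.50 (edgeR adjusted p 0.853 and 0.141).

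Slc2a2, whose product GLUT2 passes glucose in both directions across the hepatocyte membrane, lies on chromosome 3 from 28596825 to 28627282 (11 exons). It was at 196, 155 and 216 CPM in Vehicle livers and at 153, 159 and 111 CPM in FGF19 livers. FGF19 replicate 2 was above Vehicle replicate 2, so the groups overlapped. The means were 189 ± 31.1 CPM and 141 ± 26.1 CPM (SD, n = 3). The log2 fold change of -0.42 was the lowest of the 9 (SE 0.158, edgeR adjusted p = 0.145), with an interval from -41.6% to -4.61% before adjustment for the number of genes. FGF19 replicate 3 was the lowest liver, and without it the value was -0.27 (edgeR adjusted p = 0.199).

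Gys2, the liver glycogen synthase, lies on the minus strand of chromosome 6 from 142371133 to 142421629 (17 exons). It was at 191, 162 and 221 CPM in Vehicle livers and at 246, 194 and 161 CPM in FGF19 livers. The lowest FGF19 liver and the lowest Vehicle liver were nearly equal, and the highest of all was FGF19 replicate 1. The means of 191 ± 29.8 CPM and 200.4 ± 42.8 CPM (SD, n = 3) gave a log2 fold change of 0.068 (SE 0.161, edgeR adjusted p = 0.848), and the interval ran from -18.4% to 34.8%. Without FGF19 replicate 3 the value was 0.21 and without FGF19 replicate 1 it was -0.11 (edgeR adjusted p 0.362 and 0.788).

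**Figure D2:**
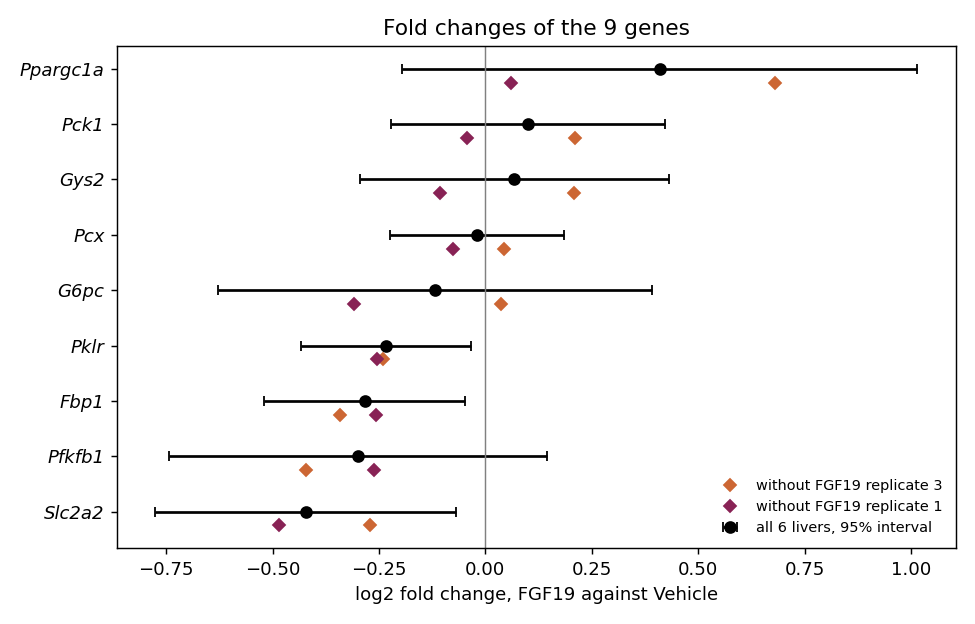
Log2 fold change of each gene, FGF19 against Vehicle (x axis), from edgeR's quasi-likelihood fit of all 6 livers (black, with 95% interval, not adjusted for the number of genes) and from fits without FGF19 replicate 3 (orange) or without FGF19 replicate 1 (purple). The intervals of Slc2a2, Fbp1 and Pklr lie below 0, and the 2 reduced fits fall on opposite sides of 0 for Pck1, Gys2, Pcx and G6pc.

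Livers of the same group differed from each other in these genes. FGF19 replicate 1 was the highest FGF19 liver for 6 of the 9 genes, and FGF19 replicate 3 was the lowest for 6. Among Vehicle livers, replicate 3 was the highest for 6 and replicate 2 the lowest for 5. The ratio of the highest to the lowest liver was larger in the FGF19 group for 5 genes and in the Vehicle group for 4 (G6pc, Pfkfb1, Fbp1 and Pklr). It was 2.41 against 1.39 among Vehicle livers for Ppargc1a and 1.53 against 1.37 for Gys2, and 1.32 against 1.83 for Pfkfb1 and 1.08 against 1.17 for Pklr. The coefficient of variation among FGF19 livers was 41.8% for Ppargc1a, 23.5% for G6pc, 21.4% for Gys2, 18.5% for Slc2a2, 17.4% for Pck1 and 14.9% for Pfkfb1, beside a median of 11.5% over all genes tested. It was 8.07% for Pcx, 7.48% for Fbp1 and 3.88% for Pklr. Among Vehicle livers it ran from 1.12% for Pcx to 31.8% for G6pc, beside a median of 9.70%.

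Per kilobase of exon (RPKM, the CPM divided by the exon length in kilobases), the order of the 9 genes was nearly the same in both groups. In Vehicle livers Pck1 was at 1876 ± 225 RPKM, Fbp1 at 731 ± 73.1, G6pc at 233 ± 74.1, Pcx at 197 ± 2.20, Slc2a2 at 73.6 ± 12.1, Gys2 at 71.9 ± 11.2, Pklr at 32.5 ± 2.51, and Pfkfb1 at 20.1 ± 5.83 RPKM (SD, n = 3). Ppargc1a was lowest, between 1.79 and 2.49 RPKM. The ranges of G6pc and Pcx overlapped, as did those of Slc2a2 and Gys2, and all other neighbours in the order were apart. In FGF19 livers Gys2, at 75.4 ± 16.1 RPKM, stood above Slc2a2, at 54.9 ± 10.2 RPKM (SD, n = 3), and these were again overlapping.

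Because a ratio of 2 genes within a liver does not depend on scaling between libraries, 7 pairs of opposed or linked steps were compared. With 3 against 3 mice the smallest two-sided p of the exact permutation test is 0.1, so no pair could pass 0.05. The log2 ratio of Gys2 to Pygl, glycogen synthase to liver glycogen phosphorylase, was -0.86, -1.14 and -0.61 in Vehicle livers and -0.031, -0.32 and -0.75 in FGF19 livers. FGF19 replicates 1 and 2 were above every Vehicle liver and replicate 3 was within their range. The mean difference was 0.50 (exact permutation test, p = 0.2, adjusted p = 0.467 over 7 pairs, n = 3), and it was between 0.33 and 0.69 with each liver left out. The ratio of Pck1 to Pklr differed by 0.32 (exact permutation test, p = 0.2, adjusted p = 0.467, n = 3), with FGF19 replicates 1 and 2 again above the Vehicle livers, and it was between 0.21 and 0.45 with each liver left out. The differences of the other 5 pairs were between -0.13 and 0.14, with exact permutation p between 0.2 and 1, and all 7 pairs overlapped between the groups.

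**Figure D3:**
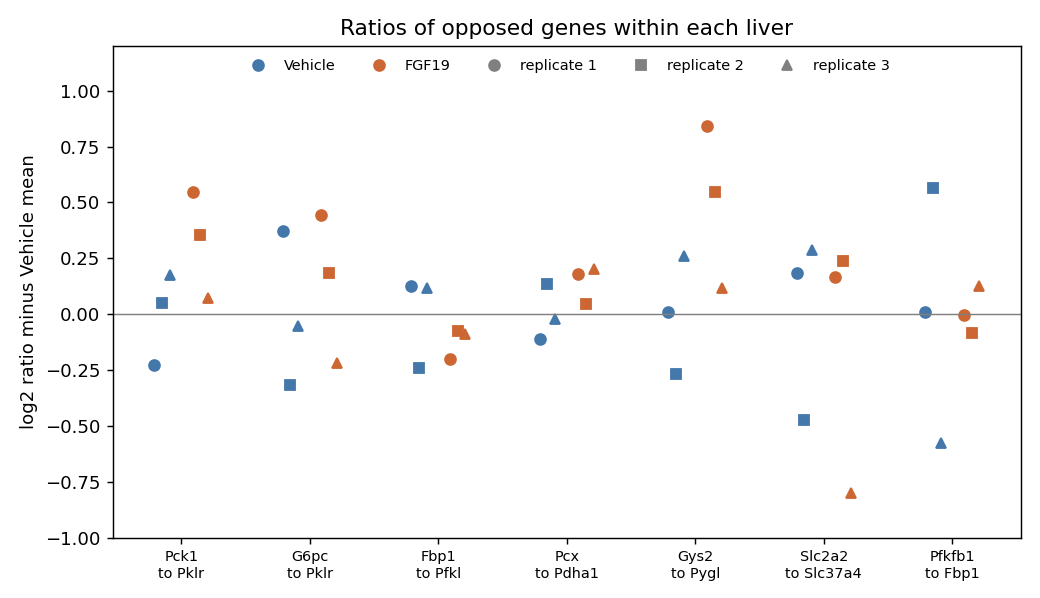
Log2 ratio of 2 genes within each liver, per kilobase of exon, minus the mean of the Vehicle livers (y axis), for 7 pairs (x axis). Colours give the group and symbols the replicate; the groups overlap for every pair, and FGF19 replicates 1 and 2 lie above all Vehicle livers for Gys2 to Pygl.

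Other genes of glucose metabolism were described with 6 lists that exclude the 9 genes. Of 24 other gluconeogenic and substrate entry genes, 23 were tested. Of these, 2 fell and 1 rose by edgeR at an adjusted p under 0.05, beside 2.84% and 4.56% over all genes tested, 19 had a log2 fold change below 0, and the median was -0.24. Ldha, which interconverts lactate and pyruvate, was at 1094, 877 and 1054 CPM in Vehicle livers and at 2231, 2590 and 2299 CPM in FGF19 livers. It rose by 1.24 on the log2 scale (SE 0.114, edgeR adjusted p = 0.000348), with the groups far apart, and passed in each of 14 alternatives. Slc25a11, the mitochondrial carrier that exchanges oxoglutarate and malate, fell from 81.0 ± 0.750 CPM to 55.5 ± 4.99 CPM (SD, n = 3; log2 fold change -0.55, edgeR adjusted p = 0.00771) and also passed in each alternative. Sds, the serine dehydratase that feeds serine into pyruvate, fell from 274 ± 26.8 CPM to 204 ± 12.6 CPM (SD, n = 3), with an edgeR adjusted p = 0.0328 that was lost in 5 of 14 alternatives.

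Of the genes of the reversible steps shared by both directions of the path, 9 of 10 were tested. All 9 had a log2 fold change below 0, with a median of -0.26, and 1 passed (2.84% of all genes tested were called lower), Eno3, the enolase isoform of muscle, at 5.49 ± 0.336 CPM against 3.31 ± 0.529 CPM (SD, n = 3; edgeR adjusted p = 0.0332, lost in 6 of 14 alternatives). The gene not tested, Eno1, is listed at 0 in every library. It shares 92.9% of its exon bases with another gene of the files, Gm5506, and reads on exons of more than 1 gene were left out by the authors.

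In glycolytic control and pyruvate oxidation, 2 of 22 tested genes fell and 3 rose at an adjusted p under 0.05, where 2.84% and 4.56% of all genes tested did, with a median of 0.026. The pyruvate dehydrogenase kinases, which hold pyruvate dehydrogenase inactive, did not move together. Pdk1 fell from 78.9 ± 8.12 CPM to 49.7 ± 6.06 CPM and Pdk2 from 162 ± 14.1 CPM to 119 ± 13.8 CPM, while Pdk4 rose from 11.8 ± 0.924 CPM to 20.3 ± 5.17 CPM (SD, n = 3; edgeR adjusted p 0.00933, 0.0377 and 0.0292, lost in 1, 6 and 6 of 14 alternatives). Pdk4, a kinase induced by fasting, was at 25.5, 20.1 and 15.2 CPM in FGF19 replicates 1, 2 and 3, and was thus highest in replicate 1 and lowest in replicate 3, as Ppargc1a and Pck1 were. Hk3, a hexokinase of myeloid cells, rose by 1.01 on the log2 scale from 1.88 ± 0.228 CPM, and Pkm2, the symbol in the files for the pyruvate kinase of muscle and many other tissues, rose by 0.53 from 11.5 ± 0.773 CPM (SD, n = 3; edgeR adjusted p 0.0147 and 0.0279, lost in 3 and 6 of 14). Beside these, the summed level of 7 neutrophil markers was 2.48 to 3.87 CPM in Vehicle livers and 6.29 to 9.28 CPM in FGF19 livers, with S100a9 called higher of 3 tested. Of 11 macrophage markers 2 were called higher by edgeR (Marco and Cd68) and 0 lower, DESeq2 called 3, and 5 had a log2 fold change below 0, among them Vsig4 at -0.54 with every FGF19 liver below every Vehicle liver. The summed level of the 11 was 306.7 to 367 CPM in Vehicle livers and 300.1 to 371 CPM in FGF19 livers. Of 8 endothelial markers Cdh5 was called higher by edgeR and 0 were called lower, and DESeq2 called 2. Of these 8, 3 had a log2 fold change below 0, among them Clec4g at -0.38 with every FGF19 liver below every Vehicle liver. The summed level of the 8 was 264 to 287 CPM in Vehicle livers and 265 to 292 CPM in FGF19 livers. Of 2 tested adipocyte markers Fabp4 was called higher by edgeR, and the summed level of the 5 listed was 20.4 to 33.6 CPM and 36.4 to 49.3 CPM. Almost all of this was Cidec and Fabp4. Adipoq was at 0.052 CPM in Vehicle and 0.030 CPM in FGF19 livers, Plin1 at 0 and 0.015 CPM, and Lep at 0 in both. The part of these cell types in the Hk3 and Pkm2 values was not tested.

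Of 28 tested genes of glycogen synthesis and breakdown, 2 fell and 1 rose, beside 2.84% and 4.56% over all genes tested, with a median of -0.11. Pygl, the liver phosphorylase that releases glucose units from glycogen, was at 368, 378 and 359 CPM in Vehicle livers and at 267, 258 and 288 CPM in FGF19 livers. It fell by 0.44 on the log2 scale (SE 0.0839, edgeR adjusted p = 0.0141, lost in 4 of 14 alternatives). Phka2, a regulatory subunit of the liver phosphorylase kinase that activates Pygl, fell from 30.4 ± 2.25 CPM to 22.1 ± 1.66 CPM (SD, n = 3; edgeR adjusted p = 0.0264, lost in 5 of 14). The gene that rose, Pgm3, acts in the synthesis of UDP-N-acetylglucosamine rather than glycogen. It was at 21.8 ± 1.85 CPM and 32.6 ± 2.68 CPM (SD, n = 3; edgeR adjusted p = 0.0114, lost in 2 of 14), and 30.3% of its exon bases are shared with another gene. Of the 6 hexose transporters tested besides Slc2a2, 0 were called by edgeR and 1 by DESeq2 at an adjusted p under 0.05, 2 had an unadjusted edgeR p under 0.05, and 5 had a log2 fold change below 0.

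**Figure D4:**
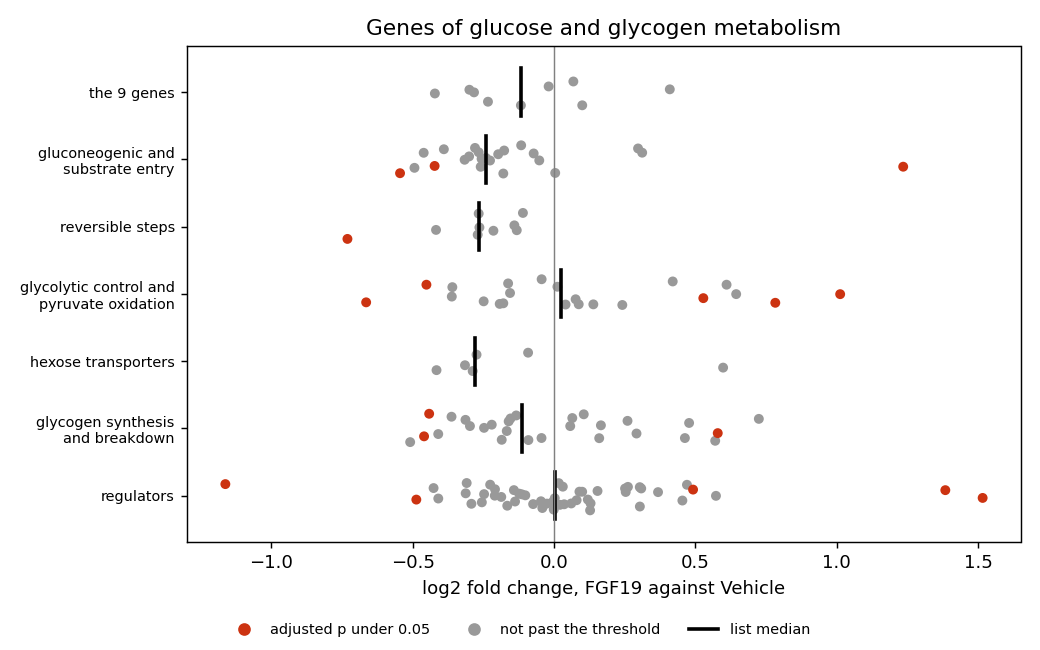
Log2 fold change, FGF19 against Vehicle (x axis), of each tested gene of the 9 and of 6 lists of glucose metabolism; red points are called by edgeR (adjusted p under 0.05) and black bars are list medians. The 9 genes hold 0 red points, and all 9 points of the reversible steps lie below 0.

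Among 51 tested regulators of gluconeogenesis, 2 fell and 3 rose, near the shares over all genes tested of 2.84% and 4.56%, with a median of 0.0022. Nr0b2 encodes SHP, a nuclear receptor that represses transcription and that FGF19 signalling activates. It was at 13.9, 21.8 and 30.9 CPM in Vehicle livers and at 64.5, 54.5 and 54.8 CPM in FGF19 livers, a rise of 1.38 on the log2 scale (edgeR adjusted p = 0.00823) that passed in each of 14 alternatives. Stat3, a transcription factor that cytokines activate and that can repress gluconeogenic genes, rose by 0.49 (edgeR adjusted p = 0.0172, lost in 5 of 14 alternatives). Nr4a1, an orphan nuclear receptor induced by cAMP, was at 1.67, 1.70 and 1.54 CPM with vehicle and at 7.96, 3.54 and 2.58 CPM with FGF19 (edgeR adjusted p = 0.0493, lost in 8 of 14 alternatives). Lpin1, a phosphatidate phosphatase that also coactivates with PGC-1α, fell by 1.16 on the log2 scale, and Adra1b, the adrenergic receptor that mobilises glycogen through calcium, fell by 0.49 (edgeR adjusted p 0.0293 and 0.0265, lost in 3 and 5 of 14).

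Gluconeogenesis runs mainly in periportal hepatocytes, and markers of this zone were measured beside it. Of 10 periportal markers 3 were called lower by edgeR (Gls2, Agxt2l1 and Sds, the last also counted above) and 0 higher, where 2.84% and 4.56% of all genes tested were. DESeq2 called 4, 7 had an unadjusted edgeR p under 0.05, and 8 had a log2 fold change below 0, with Cdh1 at 0.33 and Hal at 0.08 the others. The summed level was 9262 to 9556 CPM in Vehicle livers and 7222 to 8997 CPM in FGF19 livers. Of 10 pericentral markers 0 were called by edgeR and 1 by DESeq2, and 2 had an unadjusted edgeR p under 0.05. Here too 8 of 10 had a log2 fold change below 0, with a median of -0.10, beside -0.35 for the periportal markers. The summed level was 11680 to 12620 CPM in Vehicle livers and 8957 to 10680 CPM in FGF19 livers. Most of it was Cyp2e1, with a mean of 9603 CPM in Vehicle livers and 7324 CPM in FGF19 livers. The part of either zone in the values of the 9 genes was not tested.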

How the data were processed

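Total RNA of mouse liver was sequenced by the authors as paired 100-base reads (3 Vehicle and 3 FGF19 mice). The deposited counts are raw reads per gene, made with featureCounts 1.5.2 on mm9 exons. Per the file headers, counting ignored strand, took mates as separate reads and left out reads mapped to several places or lying on more than 1 gene. The submitters' processing notes name bcl2fastq 2.17.1.14, Trimmomatic 0.36 and STAR 2.5.3a, and the study's methods and reporting summary each give another STAR version. A further deposited table holds the authors' own fold changes and p-values and was not used.

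Groups were taken from the labels. Counts were filtered with filterByExpr, scaled by TMM and fitted with edgeR 4.0.16 (quasi-likelihood test, Benjamini-Hochberg adjustment over all genes tested, called under 0.05) in R 4.3.3. CPM and RPKM were computed with TMM library sizes. Ratios of gene pairs were compared by two-sided exact permutation. Alternatives were DESeq2 1.42.0, limma-voom 3.58.1, edgeR's likelihood ratio and exact tests, other scaling and filters, a replicate block and each library left out. The code was tested on simulated data. Every gene of interest and the called genes of each list with the lowest p (up to 3 a direction) are named, as are the genes of the pairs. The genes of interest and the lists were chosen with earlier results of these data known. Promoters are RefSeq windows (GRCm38.p6).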

Additional observations from a re-analysis of the deposited data

How the results depend on the processing

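The count of called genes among the 9 was 0 lower in every alternative run, and it was 0 higher in each except without FGF19 replicate 3, where Ppargc1a was called, so that with 1 library left out it ranged from 0 to 1. Over all genes, 357 were lower and 573 higher. The likelihood ratio test called 579 lower and the exact test 566, an adjusted p under 0.01 left 80 lower and 228 higher, and an unadjusted p under 0.01 gave 626 lower. Of the genes of the 6 lists, 9 were lower and 8 higher. Here the likelihood ratio and exact tests each called 14 lower, an adjusted p under 0.01 left 2 lower and 2 higher, and an unadjusted p under 0.01 gave 16 lower. With 1 library left out the counts ranged from 91 to 926 lower and 236 to 1015 higher over all genes, and from 2 to 25 lower and 2 to 14 higher in the lists. The highest of each came without FGF19 replicate 3.

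Same-numbered samples did not deviate together (correlations of -0.031, -0.18 and -0.18), and no sample correlated best with its own number. With 3 livers a group, each centred on its group mean, these correlations cannot exclude that the numbers mark pairs. With a replicate block 164 genes were lower and 370 higher over all genes, and 4 lower and 5 higher in the lists.

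With 1 library left out, log2 fold changes ranged from -0.043 to 0.21 for Pck1, -0.31 to 0.15 for G6pc, -0.076 to 0.044 for Pcx, -0.11 to 0.21 for Gys2 and -0.50 to -0.087 for Pfkfb1. Log2 ratio differences ranged from 0.21 to 0.45 for Pck1 to Pklr (lowest without Vehicle replicate 1), -0.24 to -0.060 for Fbp1 to Pfkl, 0.087 to 0.21 for Pcx to Pdha1, -0.022 to 0.32 for G6pc to Pklr, -0.37 to 0.20 for Slc2a2 to Slc37a4 and -0.27 to 0.30 for Pfkfb1 to Fbp1. The cause of these shifts was not tested. Of the 17 called list genes named, 14 lost the call in some alternative and 0 changed direction. The lowest count among the 9 genes was 244, and no thinning to lower depth was run. With 3 mice a group, the exact test of a ratio could not go below 0.1.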
